A study of Caenorhabditis elegans with 8 samples.

Results

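The piRNAs described here are those whose listed position starts between 16 Mb and 17 Mb on chromosome IV of Caenorhabditis elegans, a stretch near the far end of the large piRNA cluster of that chromosome. They were chosen by position only, and there were 1952 of them among the 9742 piRNAs of the deposited table. Small RNAs of whole worms were sequenced in 8 libraries of 4 genotypes with 2 libraries each. The study asks whether casein kinase II is needed for piRNAs. The genotypes were WT, prde-1, prg-1 and kin-3. Only the kin-3 worms were grown with 500 µM IAA (auxin), so each comparison with kin-3 carries the genotype and the IAA together. The labels give no allele, age or driver for any genotype. All 8 samples were treated with PIR-1, an enzyme that removes phosphates from the 5′ end of small RNAs before ligation.

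In worms, piRNAs are also called 21U-RNAs, since they begin with U and are mostly 21 nt long. Each is made in the germline from its own short transcript, and they bind PRG-1, the Piwi Argonaute that uses them to find and silence foreign transcripts. PRDE-1 belongs to the protein complex that sits upstream of piRNA genes and is needed for their transcription. KIN-3 carries the kinase activity of casein kinase II, an enzyme with many substrates. Most worm piRNA genes lie on chromosome IV, in a small and a large cluster, and many sit between or inside the introns of coding genes.

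The deposited values are in RPM, reads scaled to a common library total. The totals behind them, recovered from the values, ran from 341001 reads in a kin-3 library to 5608712 in a prde-1 library. One read was therefore worth 1.78 and 2.93 RPM in the kin-3 libraries, 1.03 and 1.43 RPM in the prg-1 libraries, 0.745 and 1.09 RPM in the WT libraries and 0.178 and 0.187 RPM in the prde-1 libraries. What other reads these totals hold is not given, so each value is relative to a pool of RNA that was not analysed here. Positions and strand of 1930 of the 1952 piRNAs matched a piRNA gene of the Ensembl release 115 annotation of WBcel235, and 22 matched none and keep the table's name. The stretch holds 2950 annotated piRNA genes and 103 coding genes. The first listed piRNA inside it, 21ur-3608 at 16000882, and the last, 21ur-6245 at 16995073, had no read in any of the 8 libraries. Neither did the nearest listed piRNAs outside, cel-piR-15486 at 15999519 and 21ur-2854 at 17015141.

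In WT the stretch was an active block of many weak and a few strong piRNAs. The summed WT level was 2720 RPM in replicate 1 and 2679 RPM in replicate 2. A read was found in 773 piRNAs in the first and 654 in the second. Over both WT libraries 973 piRNAs had a read, 454 of them in both, and 979 had none. The 10 strongest held 21.1% of the summed WT level, 65 piRNAs held 50% of it and 474 held 90%. A WT mean of 10 RPM or more was reached by 50 piRNAs, and 5 of them were at or above 50 RPM. Of the rest of the cluster from 13 Mb, with 6066 piRNAs, 51.2% had a WT read, against 49.8% here. The mean WT level per piRNA was 1.55 RPM there and 1.38 RPM here. Between the WT libraries, 124 of the 139 piRNAs that averaged 1 RPM or more across all 8 libraries lay within 2-fold of each other on the log2(RPM + 1) scale. Across these 139 piRNAs the correlation of the WT libraries was r = 0.82, a description over piRNAs that share their libraries and not a test.

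The strongest piRNA was 21ur-2822, at 16559111 to 16559131 on the minus strand, with 90.9 and 95.3 RPM in the WT libraries. 21ur-7923, at 16978968 to 16978988 on the plus strand, had 81.9 and 97.4 RPM. 21ur-5410, at 16073793 to 16073813 on the minus strand, had 85.6 and 74.5 RPM. These 3 piRNAs lay in 3 different 100 kb pieces of the stretch, and the values of 21ur-7923 overlapped those of both others. They were followed by 21ur-1088 with a WT mean of 64.2 RPM, 21ur-908 with 63.2 RPM, 21ur-1632 with 47.7 RPM and 21ur-6170 with 37.1 RPM. The last of the 10 were 21ur-7535, 21ur-1311 and 21ur-6420, with means of 33.0, 31.9 and 31.0 RPM. All 10 lay outside annotated coding genes.

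The WT level was spread unevenly along the stretch. The first 100 kb held 334 piRNAs and 528 ± 9.58 RPM (SD, n = 2), which was 19.6% of the summed level. The 100 kb from 600 kb held 152 piRNAs and only 61.2 ± 0.174 RPM, or 2.27% of it. Per listed piRNA, that was 1.58 RPM in the first piece and 0.403 RPM in the one from 600 kb, and the highest piece, from 900 kb, had 2.04 RPM. The values of both WT libraries for the first piece lay above those of all others, and those of the piece from 600 kb lay below all others. Among the 152 piRNAs from 600 kb, 42 had a WT read and 2 reached a mean of 1 RPM over the 8 libraries.

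**Figure D1:**
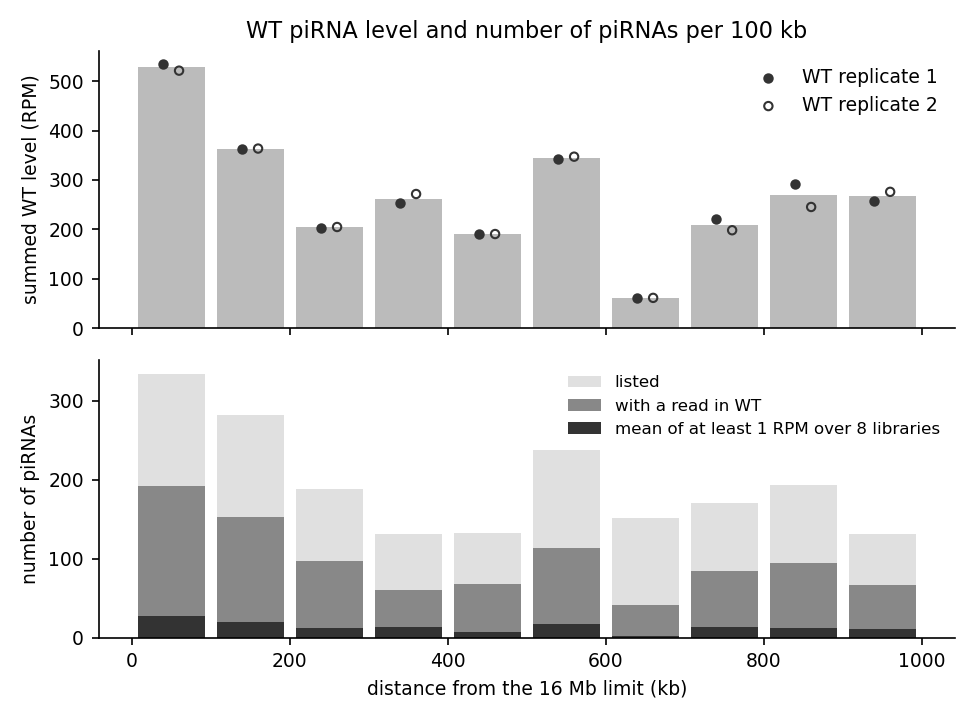
The upper panel plots the summed WT level in RPM for each 100 kb piece against distance from the 16 Mb limit in kb, with bars for the mean and points for the 2 WT libraries. In the lower panel the nested bars count the listed piRNAs, those with a WT read and those averaging 1 RPM or more across all 8 libraries; the piece from 600 kb has 152, 42 and 2.

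The 2 strands were used about equally over the whole stretch, with 930 piRNAs on the plus strand holding 45.7% of the WT level and 1022 on the minus strand holding 54.3%. Single pieces were less balanced. From 300 kb to 400 kb the plus strand had 67.2% of the piRNAs and 83.0% of the level, and from 500 kb to 600 kb it had 35.0% of the piRNAs and 22.0% of the level. The strongest piRNA of each of these pieces, 21ur-1632 on the plus strand and 21ur-2822 on the minus strand, lay on the strand that led. The median distance between neighbouring starts was 242 bp. The largest distances with no listed piRNA were 36730 bp, 34070 bp and 31859 bp. The first overlapped 4 annotated coding genes, among them dlc-3, a dynein light chain gene. The last overlapped 5, among them arf-6, a small GTPase gene.

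Most of the piRNAs lay between coding genes. Outside annotated coding genes there were 1648, which is 84.4% of the stretch, against 59.9% in the rest of the cluster from 13 Mb. Introns of coding genes held 276 and exons 28. The WT level per listed piRNA was 1.44 RPM outside coding genes, 1.08 RPM in introns and 0.949 RPM in exons. Outside coding genes it was 1.45 and 1.43 RPM in the 2 WT libraries, in introns 1.08 RPM in both and in exons 1.04 and 0.860 RPM. The order of the values was the same in both WT libraries, and the exon value rests on 28 piRNAs. In the rest of the cluster the order was another one, with 1.47 RPM outside coding genes, 1.71 RPM in introns and 1.24 RPM in exons. These values were not tested. Coding genes with a piRNA inside numbered 38. The gene jac-1, which encodes a p120-catenin of cell junctions, crosses the 16 Mb limit and held 100 of the piRNAs with a summed WT mean of 125 RPM. No other coding gene held more than 18.

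A total of 536 piRNAs, or 27.5%, overlapped another listed piRNA on the same strand, in 322 pairs, and 119 pairs were shifted by 1 nt. Such pairs share most of their sequence, and how reads were divided between them is not given in the sources used here. Over all 322 pairs, whatever their shift, 37 had at least 10 WT reads between them. A piRNA can be in more than 1 pair. In most of the 37 pairs, 1 of the 2 took nearly all reads. The stronger partner held at least 90% of the reads in 34 of the 37, with a median of 98.6% and a lowest share of 72.7%. No like share is given for neighbours that do not overlap, and 979 piRNAs of the stretch had no WT read. As an example of an uneven pair, 21ur-2822 had 209 WT reads, while 21ur-6251, shifted by 1 nt, had 1.49 and 1.09 RPM in the WT libraries. The partner of 21ur-1632, 21ur-7721, had no read. The upstream start was the stronger in 20 of the 37 pairs and the downstream start in 17.

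In all 3 mutants the summed level of the stretch was close to nothing. The kin-3 libraries had 20.5 and 10.7 RPM, the prde-1 libraries 7.12 and 6.24 RPM and the prg-1 libraries 10.3 and 7.14 RPM, against 2720 and 2679 RPM in WT. The lowest WT library was far above the highest mutant library, and the 3 mutants lay near each other. The mean was 2699 ± 28.7 RPM in WT (SD, n = 2), and it was 15.6 ± 6.97 RPM with kin-3, 6.68 ± 0.622 RPM with prde-1 and 8.73 ± 2.24 RPM with prg-1. These sums rest on 3652 and 2447 reads of WT, 7 and 6 of kin-3, 38 and 35 of prde-1, and 10 and 5 of prg-1. On pooled reads, WT was 188-fold above kin-3 (exact 95% interval 110 to 353), 405-fold above prde-1 (322 to 518) and 301-fold above prg-1 (182 to 538). The level left was 0.532%, 0.247% and 0.332% of WT, in that order. The sums differed over the 4 genotypes (two-sided exact permutation test, p = 0.00952). WT differed from the other 6 libraries with an exact p of 0.0357, the smallest that 28 splits can give. Without either prde-1 library the p over the genotypes was 0.0571. Pairs of genotypes are 2 libraries against 2, for which the smallest exact p is 0.333, so their intervals cover counting error only. In RNA of whole worms, fewer germ cells and fewer piRNAs per germ cell cannot be told apart. After TMM rescaling, which draws the libraries together on the listed piRNAs alone, WT was 111-fold above kin-3, 13.2-fold above prde-1 and 88.7-fold above prg-1. TMM takes most piRNAs as unchanged, while 97.8% to 98.3% of those tested were called lower in a mutant. Its factors were 3.64 and 3.62 for WT and 0.115 and 0.121 for prde-1, so these folds do not rank the mutants.

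**Figure D2:**
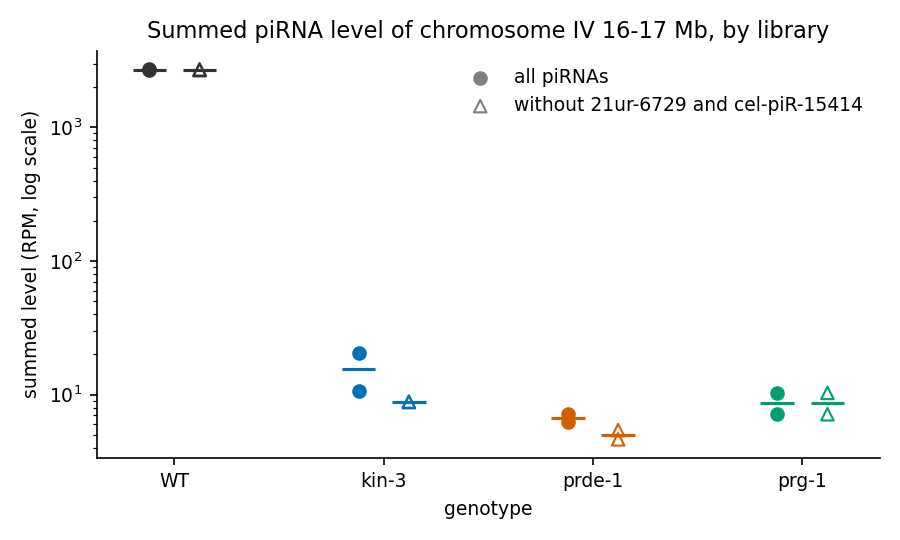
The summed level in RPM is plotted on a log scale for each of the 8 libraries by genotype, with short lines at the mean of 2 libraries; filled circles hold all 1952 piRNAs and open triangles leave out 21ur-6729 and cel-piR-15414. WT lies at 2679 and 2720 RPM and the 6 mutant libraries between 6.24 and 20.5 RPM.

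The number of piRNAs with a read fell in the same way. WT had 773 and 654, prde-1 had 25 and 27, prg-1 had 9 and 5, and kin-3 had 5 and 6. WT did not overlap any mutant (exact permutation p = 0.0286 among the 4 genotypes and 0.0357 for WT against all 6 mutant libraries). The mutant numbers follow depth. Thinned to the smallest read total of 341001, the expected number was 386 ± 1.37 for WT, 4.32 ± 0.962 for kin-3, 2.91 ± 0.676 for prg-1 and 2.20 ± 0.179 for prde-1 (SD, n = 2). At equal depth the prde-1 number was thus no higher than those of the other mutants.

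For single piRNAs, 139 of the 1952, or 7.12%, averaged 1 RPM or more across all 8 libraries and were tested with limma on log2(RPM + 1), with p-values adjusted by the Benjamini-Hochberg method over all 695 piRNAs tested. Against WT, 137 of the 139 were lower in kin-3, where 97.8% of all tested piRNAs were called lower. For prde-1 it was 138, beside 98.3% of all tested, and for prg-1 also 138, beside 98% of all tested. None of the 139 was called higher in any mutant, also at an unadjusted p under 0.05. With no filter on level, 1 of 992 was, 21ur-6729 in kin-3 (limma adjusted p = 0.0110), on 2 reads against 1 WT read. Over all tested piRNAs the share called higher was 0.288% for kin-3, 0.863% for prde-1 and 0.432% for prg-1. In edgeR's quasi-likelihood test on the recovered reads none was higher either. The shares here were thus near those of the whole table. All but 1 of the 139 passed the filter on their WT level alone, so these counts describe piRNAs that were abundant in WT and say nothing of the other 1813. The median log2 change of the 139 was -3.0 in each mutant. Over all 695 the kin-3 and prde-1 medians were -3.06 and the prg-1 median was -3.04. In 138 of the 139 both WT values lay above all 6 mutant values, beside 98.1% of all tested.

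The 10 strongest WT piRNAs had almost no mutant read. They were picked on the WT values they are compared with here, so the statistics describe them and are no independent support. None of them had a kin-3 or prg-1 read, and 21ur-1311 alone had a prde-1 read, in replicate 2 (0.178 RPM). The values of 21ur-2822 were 90.9 and 95.3 RPM in WT and 0 in the 6 mutant libraries. Its log2 change was -6.56 with SE 0.04 in each mutant (limma, adjusted p = 1.51e-08). Over the 10, the log2 change ran from -6.56 to -4.92 over the 3 mutants and the highest adjusted p was 6.16e-07. Set against 3 pooled reads as the limit for a piRNA with no read, the piRNAs were at least 9.33-fold to 28-fold lower in kin-3. By the same limit they were at least 17.2-fold to 51.8-fold lower for prg-1 and, for the 9 with no read, 113-fold to 340-fold lower for prde-1. These bounds follow the depth of each genotype, and their order is not an order of effects. Among the 10 largest falls in prde-1, 21ur-6881 (35.0 and 25.2 RPM in WT, no mutant read) took the place of 21ur-1311.

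**Figure D3:**
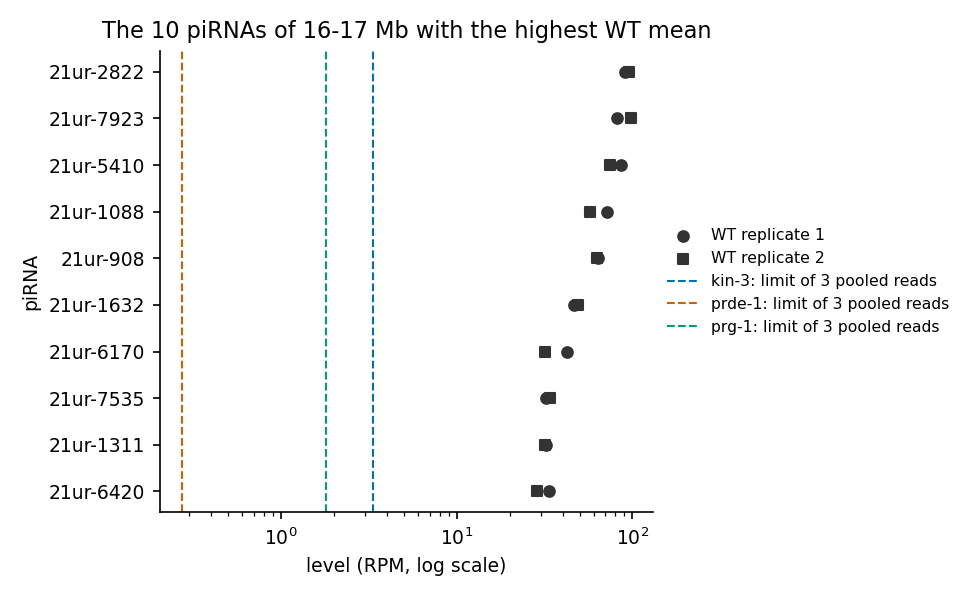
For the 10 piRNAs with the highest WT mean, the level in RPM in both WT libraries is plotted on a log scale; dashed lines mark the level of 3 pooled reads in kin-3 (3.32 RPM), prde-1 (0.274 RPM) and prg-1 (1.80 RPM). All WT points lie to the right of all 3 lines, and no mutant value is drawn since the only mutant read was that of 21ur-1311 in prde-1.

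Between mutants nearly all of the tested piRNAs compared 0 with 0, since they passed the filter on their WT level. Of the 139, 126 had no prde-1 read, 137 no prg-1 read and 137 no kin-3 read. All 3 comparisons, kin-3 against prde-1, kin-3 against prg-1 and prde-1 against prg-1, gave 0 calls in the stretch by limma and by edgeR, and limma called 0% of all tested piRNAs in each, which says little on whether the mutants differ. At an unadjusted limma p under 0.05 there were 0, 1 and 1. The piRNA behind both was 21ur-3180, which lies at 16033552 to 16033572. It had 16.4 and 13.1 RPM in WT, 1.03 and 1.43 RPM (1 read in each library) in prg-1, and no kin-3 or prde-1 read. Its log2 change in prg-1 was -2.82 (SE 0.13, limma adjusted p = 6.55e-06), and with a pseudocount of 0.1 it was called between prg-1 and each other mutant. The difference rests on 2 reads.

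Only 2 of the 139 were not called lower in every mutant. 21ur-2656, in an intron of Y43D4A.2 and antisense to it, had 6.70 and 2.19 RPM in WT, 0 and 1.78 RPM in kin-3, and 0 in the 4 other libraries. The WT and kin-3 values did not overlap, although the lower WT value and the single kin-3 read were close. Its log2 change in kin-3 was -1.57 (SE 0.61, limma adjusted p = 0.0510), and it was called lower in prde-1 (adjusted p = 0.0131) and prg-1 (adjusted p = 0.0132). Without kin-3 replicate 2, which holds that 1 read, it was called lower in kin-3 as well (adjusted p = 0.0133). The prde-1 and prg-1 calls were lost without WT replicate 1 (adjusted p = 0.103 and 0.104), and the prde-1 call also without either prde-1 library (adjusted p = 0.0522).

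The other was cel-piR-15414, at 16706013 to 16706033 on the minus strand, which overlaps 21ur-6729 at 16706014 to 16706034 on the same strand. They are shifted by 1 nt, lie outside coding genes, and were the piRNAs with most prde-1 and kin-3 reads of the stretch. cel-piR-15414 matched no annotated piRNA gene. The pair together had 4 and 0 WT reads, 9 and 9 prde-1 reads, no prg-1 read, and 4 and 1 kin-3 reads. As levels, WT had 2.98 and 0 RPM, prde-1 had 1.69 and 1.60 RPM, prg-1 had 0, and kin-3 had 11.7 and 1.78 RPM. 21ur-6729 alone had 1 and 0 WT reads, 7 and 5 prde-1 reads and 1 kin-3 read in each library. The WT values enclosed those of prde-1, and the kin-3 values lay on both sides of the higher WT value. On pooled reads the pair had 0.927 times the WT level in prde-1 (95% interval 0.305 to 3.77) and 3.12 times in kin-3 (0.672 to 15.7), while the stretch as a whole had 0.247% and 0.532% of it. In prg-1 no read was found, which allows up to 1.80 RPM, about the WT level of 1.77 RPM, so a fall there was not detectable at this depth. For cel-piR-15414 alone the log2 change was 0.80 for kin-3 (limma adjusted p = 0.528), -0.23 for prde-1 (adjusted p = 0.854) and -0.85 for prg-1 (adjusted p = 0.503), each with SE 1.17. It passed the filter only through its mutant values. The sign of its change in kin-3 and prde-1 depends on single libraries. The pair was singled out after its values were seen.

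The pair weighed on every mutant sum it was part of. It held 24.7% of all prde-1 reads of the stretch and 38.5% of all kin-3 reads, against 0.0656% in WT. Without it, WT was 538-fold above prde-1 and 305-fold above kin-3, and the 301-fold of prg-1 did not move. The kin-3 libraries then had 8.80 and 8.90 RPM, in place of 20.5 and 10.7 RPM. Pooled kin-3 reads over all piRNAs of the stretch were 2.16 times the prde-1 level (95% interval 1.1 to 3.93). Without the pair they were 1.76 times that level (0.725 to 3.72), and in the rest of the cluster from 13 Mb 2.16 times (1.39 to 3.25).

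Relative to the rest of the cluster, the stretch kept a larger share of what was left in prde-1 and kin-3. Of the summed level of chromosome IV from 13 Mb, WT had 22.2% and 22.4% here, prde-1 33.0% and 30.4%, kin-3 31.8% and 31.6%, and prg-1 18.2% and 16.1%. The values of prde-1 and kin-3 lay above WT and those of prg-1 below it, with no overlap. The 4 genotypes differed by the exact permutation test (p = 0.0286), while WT against the other 6 libraries did not pass (p = 0.429). Without 21ur-6729 and cel-piR-15414 the share was 27.4% and 24.5% in prde-1, still above WT, and 16.7% and 27.8% in kin-3, on both sides of WT. The exact p over the 4 genotypes was then 0.390. The call for a larger share thus rests on 1 locus. On pooled reads the share without the pair was 25.9% for prde-1 (exact binomial 95% interval 20.2% to 32.4%), 22.2% for kin-3 (10.1% to 39.2%) and 17.4% for prg-1 (10.1% to 27.1%), against 22.3% in WT (21.8% to 22.8%). All 3 mutant intervals hold the WT value. Of all listed piRNAs, by contrast, the stretch held less in each mutant than in WT. The mean share was 20.5% in WT, 6.83% with kin-3, 3.85% with prg-1 and 1.70% with prde-1. In prde-1 the small cluster of chromosome IV had 221 and 235 RPM, but only 3.00 and 1.60 RPM without cel-piR-14009. In WT it had 961 and 956 RPM with that piRNA. Other chromosomes had 143 and 145 RPM in prde-1, against 85.6 and 90.9 RPM in WT. They had 155 and 142 RPM in kin-3, and 144 and 149 RPM in prg-1.

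**Figure D4:**
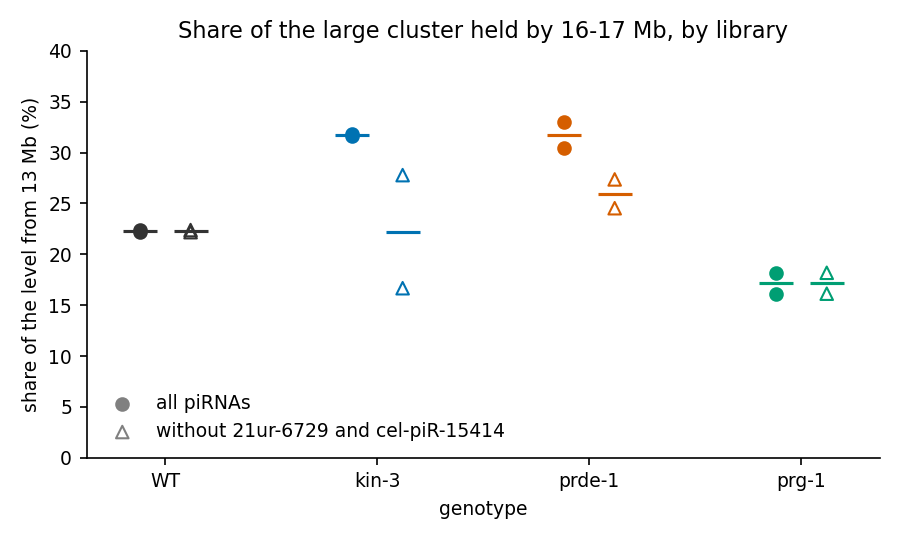
The share of the summed level of chromosome IV from 13 Mb that lies in 16 to 17 Mb is plotted in percent for each library by genotype, with short lines at the mean of 2 libraries; open triangles leave out 21ur-6729 and cel-piR-15414. With all piRNAs the kin-3 and prde-1 libraries lie at 30.4% to 33.0%, and without the pair they spread from 16.7% to 27.8% around the WT values.

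Along the stretch the few mutant reads lay at scattered sites. Of 159 windows of 5 kb with a listed piRNA, 148 had a WT read, 33 a prde-1 read, 12 a prg-1 read and 9 a kin-3 read. Besides the window of the overlapping pair, 1 window from 16835000 to 16839999 stood out in prde-1, chosen after its values were seen. Its 29 piRNAs summed to 44.7 and 26.3 RPM in WT. The prde-1 libraries had 0.937 and 1.07 RPM, the prg-1 libraries 1.03 and 1.43 RPM and the kin-3 libraries 0 and 1.78 RPM. The WT values were above all mutant values, and the mutant values overlapped. It held 15.1% of the prde-1 reads of the stretch, from 8 piRNAs, against 1.38% of the WT reads. The level left there was 2.70% of WT for prde-1 (11 reads), 3.22% for prg-1 (2 reads) and 2.97% for kin-3 (1 read).

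**Figure D5:**
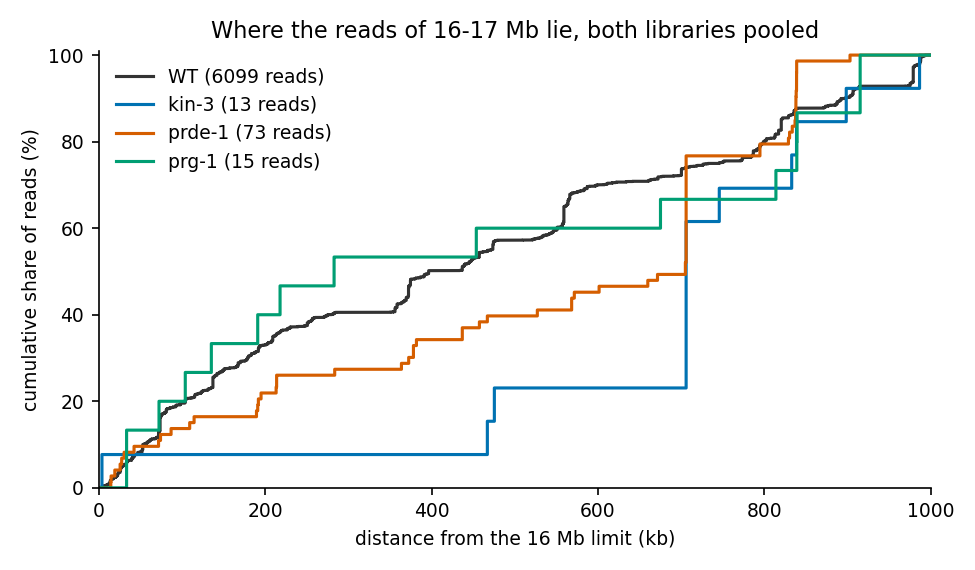
The cumulative share of reads in percent is plotted against distance from the 16 Mb limit in kb for each genotype, both libraries pooled. The WT line rises over the whole stretch, while the kin-3 line (13 reads) and the prde-1 line (73 reads) step up at the overlapping pair, by 38.5% and 24.7% of their reads.

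At the level of single piRNAs, 67 of the 1952 had a read in some mutant, and 48 of these also had a WT read. No piRNA had a read in all 3 mutants and 5 had one in 2 of them. A prde-1 read was found in 49 piRNAs, in 39 of them a single one. A prg-1 read was found in 13, in 11 of them a single one, and a kin-3 read in 10, in 8 of them a single one. Among those with more, 21ur-4703, in an intron of dlc-3, had 2 prde-1 reads beside 24.6 and 21.9 RPM in WT. 21ur-5768 had 2 prg-1 reads beside 0 and 1.09 RPM in WT.

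WT replicate 1 was used to sort the piRNAs, so that WT replicate 2 and the mutants could be read without that choice. Of the 773 piRNAs with a read in WT replicate 1, 58.7% had one in WT replicate 2. The prde-1 libraries had a read in 2.33% and 2.20% of them, the prg-1 libraries in 0.388% and 0.517%, and both kin-3 libraries in 0.517%. The mutant libraries lay far below WT replicate 2 and, given their depths, differed little. Of the 75 piRNAs with 10 or more reads in WT replicate 1, all had a read in WT replicate 2. The prde-1 libraries had one in 2 and 4 of the 75, the prg-1 libraries in 2 and 1, and the kin-3 libraries in none.

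What prde-1 kept differed between strong and weak WT piRNAs in counted reads. For the 75 strongest, the prde-1 level was 0.0475% of WT replicate 2 (95% interval 0.0191% to 0.0982%, 7 reads). With the overlapping pair left out, it was 0.261% (0.129% to 0.474%) for the 96 piRNAs with 5 to 9 reads in WT replicate 1. For the 283 with 2 to 4 reads it was 0.234% (0.120% to 0.413%) and for the 317 with 1 read 0.302% (0.109% to 0.670%). The interval of the strongest class lay below those of the other 3, while those 3 overlapped. These intervals cover counting error over the piRNAs of a class, and the difference was not tested over libraries. In kin-3 the 75 strongest had no read, which leaves up to 0.304% of WT, and in prg-1 they had 0.134% (0.0275% to 0.391%). With the pair left out, kin-3 and prg-1 had 5 and 7 reads over these 4 classes, and no such difference was detectable among them. With the pair kept, the kin-3 level was 2.44% (0.656% to 6.36%) for the class with 1 read. For the class with 2 to 4 reads the kin-3 interval was then 0.382% to 2.78%. Both intervals lay above the kin-3 limit of the strongest class. That difference depends on the pair, which had 5 kin-3 reads, 4 of them in replicate 1. The 1179 piRNAs with no read in WT replicate 1 form a further class. Its prg-1 level was 1.60% of WT replicate 2 (0.685% to 3.20%), above the prg-1 interval of the strongest class. That rests on 8 reads, 7 of them in prg-1 replicate 1. In the same class prde-1 had 0.581% (0.344% to 0.924%), also above its strongest class. For kin-3 it was 1.11% (0.228% to 3.28%), which overlapped.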

How the data were processed

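Small RNAs of whole worms were measured in 8 libraries, grouped by the genotype and replicate in their titles. Per the labels' protocols, RNA was extracted with Trizol, enriched for small RNAs, treated with PIR-1, ligated to adaptors and amplified. The submitters' processing notes name Bowtie 1.2.1.1 and cutadapt 1.18. Settings, genome build and the handling of multiply mapped reads are not given in these notes. The values are 1 table in RPM as deposited by the authors. All positive values (100%) were whole multiples of the smallest value of their library (tolerance 0.01 reads), which gave back reads and read totals, and every column was used. One of the 1952 piRNAs is listed with 2 positions and was placed by the first, and it had no read.

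limma 3.58.1 in R 4.3.3 was fitted with a trended prior to log2(RPM + 1) of the 695 piRNAs with a mean of at least 1 RPM, in all 8 libraries, with a term for genotype and none for batch and a Benjamini-Hochberg threshold of 0.05. It understates the change of low piRNAs. The spread of a piRNA is shared over genotypes, and those at 0 add none, so its SE can rest on single reads. The script was tested on simulated data, drawn from the WT profile with some piRNAs changed in kin-3 only. In the real data most tested piRNAs had no read in any mutant, so that run says nothing on the fit in this setting. Single values per library were compared by exact permutation tests (2520 arrangements of the 4 genotypes, 28 splits). Counting intervals (conditional binomial for ratios, binomial for shares) are exact 95% ones from pooled reads, and a piRNA with no read was bounded at 3 pooled reads. No molecular identifiers are named, so both cover counting error only. Alternatives were edgeR 4.0.16 on recovered reads, pseudocounts of 0.1 and 5, other filters, TMM rescaling, a replicate block, fits of 2 genotypes, and leaving out libraries.

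The piRNAs named were the 10 highest in WT, the 10 largest falls per mutant, tested piRNAs not lower or higher in a mutant, the 3 with most reads per mutant, those at the limits and the 3 closest pairs. The members and lists were chosen with earlier results of these data known. No genome sequence was used, so lists on the upstream motif and first base were not run, and classes of reads in WT replicate 1 took the place of a planned split by WT level. The table lists piRNAs only, so the tissue label could not be set against marker genes. Separate cultures are not stated in the labels, and the spread behind each p-value may therefore be technical.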

Additional observations from a re-analysis of the deposited data

How the results depend on the processing

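With a mean of at least 10 RPM, 6, 6 and 6 piRNAs were lower against WT with kin-3, prde-1 or prg-1, all that were then tested. With no filter, 450, 452 and 451 of 992 were lower. These were 45.4%, 45.6% and 45.5%, beside 45.4%, 45.4% and 45.3% of all 4878 piRNAs then tested, so near the whole table. Only 1 of the 992, 21ur-6729, was higher in kin-3 (limma adjusted p = 0.0110). cel-piR-15414 was higher in kin-3 without kin-3 replicate 2 (count 1, adjusted p = 0.0283) and in prde-1 after TMM rescaling (count 1, adjusted p = 0.0498). Without 1 library, both counts of piRNAs called higher were otherwise 0. The log2 change of cel-piR-15414 in kin-3 ran from -0.85 (without kin-3 replicate 1) to 2.45, with -0.047 without WT replicate 2. For prde-1 it ran from -1.08 to 0.62 (without WT replicate 1), and it was 2.09 after TMM rescaling and 0.36 with a pseudocount of 0.1. The number of piRNAs called between prg-1 and each other mutant became 1 with a pseudocount of 0.1 (21ur-3180, adjusted p = 0.00612 for kin-3 and 0.00306 for prde-1). It was also 1 without prg-1 replicate 2 (21ur-226, adjusted p = 0.0233 in both), 0 without any other single library, and, for prde-1, after TMM rescaling (21ur-3180, adjusted p = 0.0109). TMM rescaling moved the median log2 change of all tested piRNAs from -3.06, -3.06 and -3.04 to -1.60, -1.57 and -1.60 in the same order of mutants. It left 134, 131 and 135 of the 139 piRNAs lower. Shares over all tested piRNAs are not given for TMM rescaling or the 10 RPM filter, so those counts cannot be read as particular to the stretch.

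Without 1 library, the exact p of the summed level ran from 0.00952 to 0.0571 over the genotypes and from 0.0476 to 0.143 for WT against the others. For piRNAs with a read the latter ran over the same range, and with 1 WT library 0.143 is the smallest p that 7 splits allow. The share of the cluster had an exact p of 0.276 without the piRNA highest in each mutant and 0.390 without the overlapping pair, a choice made after seeing the data. With all listed piRNAs as the denominator, its exact p for WT against the others was 0.0357, with the share higher in WT than in every mutant. In the mutants that denominator lies mostly outside the large cluster, so the difference was not particular to the stretch. The fold of WT over kin-3 was 303 without the highest piRNAs and 305 without the pair. For prde-1 it was 535, 538 and, after TMM rescaling, 13.2, and for prg-1 it was 88.7 after TMM rescaling. Without 1 library the fold ran from 132 to 253 for kin-3, 380 to 433 for prde-1 and 262 to 378 for prg-1. For the 14 named piRNAs other than cel-piR-15414 and 21ur-2656, all 648 alternative values kept their direction and side of the threshold.

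The replicate block left 137, 138 and 138 of the 139 piRNAs lower, the same counts as in the main fit. The share over all tested piRNAs is not given for that fit, so these counts cannot be read as particular to the stretch. Differences between replicates 1 and 2 correlated between genotypes at -0.03 to 0.07 over 695 piRNAs. Of the 139 in the stretch, 126, 137 and 137 had no prde-1, prg-1 and kin-3 read, so most mutant differences were 0. Whether same-numbered libraries share a batch could therefore not be told. Fits of 2 mutants alone could not be made. Depth limits what can be said of any single piRNA in kin-3, where 3 pooled reads are 3.32 RPM.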
